A study of Homo sapiens with 4 samples.

Results

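The chromatin loops described here are those of over 90 and up to 200 kb, with size taken from the start of the first anchor to the start of the second. They were found by that size alone in the Hi-C loop lists of MDA-MB-231, a wild-type (WT) triple negative breast cancer (TNBC) cell line, kept for 48 h in DMSO vehicle or in 75 nM THZ1, a covalent inhibitor of CDK7. There were 5296 such loops of 20768 in vehicle replicate 1, 6126 of 24219 in vehicle replicate 2, 4213 of 17222 in THZ1 replicate 1 and 3753 of 15066 in THZ1 replicate 2. Each condition had 2 libraries, which the labels call technical replicates of 1 cell line, so the spread between them may be technical. The label MDA-MB-231 could not be checked against marker genes, since the files hold contacts and not expression.

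Hi-C joins DNA ends that lie close together in the nucleus, and a loop appears as a pair of anchors with more contacts than their surroundings. In interphase, cohesin is thought to extrude DNA until it meets CTCF, a zinc-finger protein whose motifs tend to point toward each other at the anchors of a loop. Promoters and enhancers can also anchor loops, and condensin compacts chromosomes by forming loops and smaller loops within them. The comparison asks how loops just above the size given by the study for condensin subloops differed between vehicle and THZ1.

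Among loops whose anchors were the same in every list, 26 of this size held exactly 1 CTCF core match in each anchor, and 22 of these had the matches pointing toward each other. The core searched was CCA, any 2 bases, AGG, any base, GGC, on both strands of GRCh37. The sequences below show 3 such convergent pairs, since the orientation of these letters is what sets these loops apart from the tandem and divergent ones. They come from the 3 strongest loops of this kind. The loop of chromosome 22 met the rule for printed sequences, and the other 2 loops were chosen after their values were seen. Each line runs 5′ to 3′ on the strand of the match, with the core in capitals and the flanks in lower case.
Chromosome 22, first anchor, chr22:23301553-23301604, plus strand: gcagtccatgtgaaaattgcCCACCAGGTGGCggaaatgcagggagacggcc
Chromosome 22, second anchor, chr22:23470771-23470822, minus strand: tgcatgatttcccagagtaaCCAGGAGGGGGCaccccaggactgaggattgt
Chromosome 1, first anchor, chr1:17452403-17452454, plus strand: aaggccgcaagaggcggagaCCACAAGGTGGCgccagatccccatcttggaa
Chromosome 1, second anchor, chr1:17563699-17563750, minus strand: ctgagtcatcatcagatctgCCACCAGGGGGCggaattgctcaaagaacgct
Chromosome 7, first anchor, chr7:140217866-140217917, plus strand: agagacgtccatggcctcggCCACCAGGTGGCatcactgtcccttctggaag
Chromosome 7, second anchor, chr7:140353374-140353425, minus strand: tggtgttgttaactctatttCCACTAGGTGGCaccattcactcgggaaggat

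The matches of the first anchors of these 3 loops lay outside protein-coding genes. Those of the second anchors lay in introns of RSPH14 (chromosome 22), PADI1 (chromosome 1) and DENND2A (chromosome 7). The chromosome 22 loop, of 170 kb, had 18 and 16 observed contacts with vehicle and 30 and 30 with THZ1, against donut expectations of 0.574, 0.628, 1.22 and 1.52. Its ratios of observed to expected contacts were therefore 31.4, 25.5, 24.6 and 19.8. Observed contacts and local expectation were both higher with THZ1, and the ratio was lower. The chromosome 1 loop, of 110 kb, had 108 and 147 observed contacts with vehicle and 104 and 116 with THZ1. Its ratios of 20.0 and 25.4 with vehicle stood above the 14.9 and 17.5 with THZ1 (log2 change -0.48, standard error 0.17, edgeR adjusted p = 0.0454). The convergent loop of chromosome 7 had ratios of 13.5 and 15.8 with vehicle and 15.5 and 12.9 with THZ1, so the groups overlapped. A match is a run of letters in the reference and not a measured binding site.

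Fewer loops of over 90 to 200 kb were called with THZ1. The mean of the 2 vehicle libraries was 1.43 times that of the 2 THZ1 libraries (log2 ratio -0.52, SD within conditions 0.13, n = 2 per condition). Both vehicle numbers lay above both THZ1 numbers, and the exact two-sided permutation test gave p = 0.333, the smallest it can give with 2 libraries against 2. The difference was present on each of the 23 chromosomes with loops, where each vehicle library exceeded each THZ1 library and the ratio of means ran from 1.29 to 1.65. The ratio was highest in the smallest loops of the class and did not fall evenly with size. Between over 90 and 110 kb, 1438 and 1667 vehicle loops and 1029 and 860 THZ1 loops were called, a ratio of 1.64. The next 3 steps, up to 130, 150 and 170 kb, had ratios of 1.40, 1.36 and 1.43. Between over 170 and 200 kb the numbers were 1209 and 1341 with vehicle and 1007 and 937 with THZ1, a ratio of 1.31. In the neighbouring size classes the ratio was 1.79 over 50 to 90 kb and 1.17 over 200 to 500 kb. At the limits of the class, 816 and 911 vehicle loops and 550 and 461 THZ1 loops measured over 80 to 90 kb, just outside it, and 807 and 948 vehicle loops and 567 and 475 THZ1 loops over 90 to 100 kb, just inside.

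**Figure D1:**
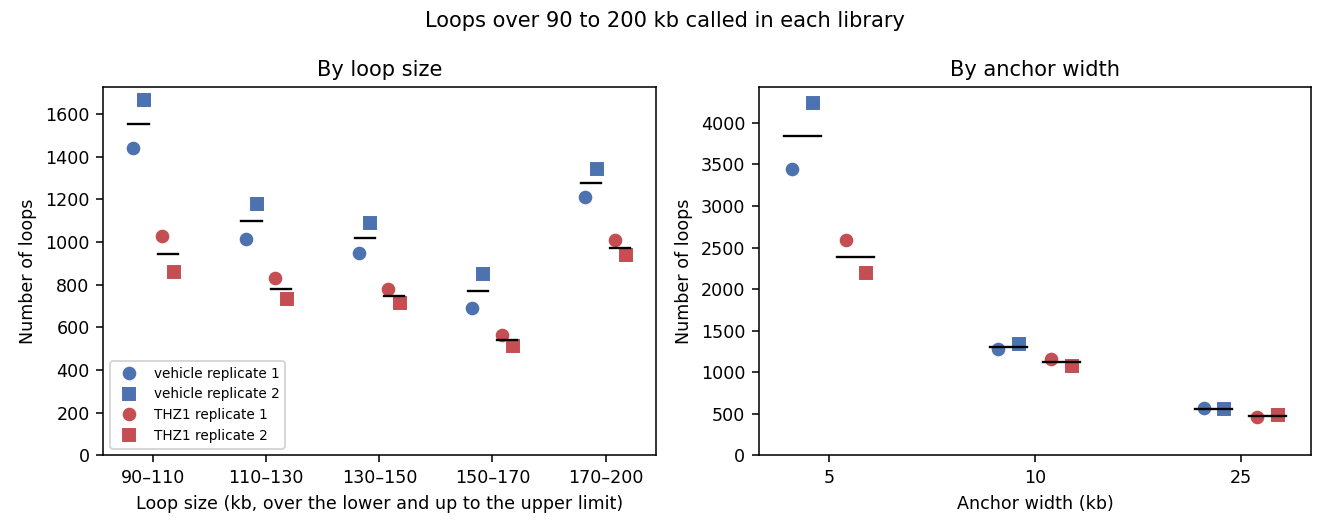
Numbers of loops over 90 to 200 kb in each library, by loop size in kb (left) and by anchor width in kb (right), with circles for replicate 1, squares for replicate 2 and a bar for the mean of each condition. Both vehicle libraries lie above both THZ1 libraries in every size step and at each width, and the gap is widest at 5 kb anchors, with 3445 and 4240 loops against 2592 and 2188.

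The number depended on the width of the anchors, which HiCCUPS calls at 5, 10 and 25 kb. The 5 kb anchors gave 3445 and 4240 vehicle loops and 2592 and 2188 THZ1 loops (log2 ratio -0.69, SD 0.19). The 10 kb anchors gave 1279 and 1334 vehicle loops and 1160 and 1078 THZ1 loops (log2 ratio -0.22, SD 0.061). The 25 kb anchors gave 572 and 552 against 461 and 487 (log2 ratio -0.25, SD 0.047). All 3 widths had the same direction. The loops of 5 kb anchors made up 65.0% and 69.2% of the class with vehicle and 61.5% and 58.3% with THZ1.

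As a part of each loop list, the class hardly moved. It made up 25.5% (95% Wilson interval from 24.9% to 26.1%) and 25.3% (24.8% to 25.8%) of the vehicle loops and 24.5% (23.8% to 25.1%) and 24.9% (24.2% to 25.6%) of the THZ1 loops. The difference of -0.71 percentage points (SD 0.25, exact permutation p = 0.333) turned to 0.82 points among loops with 5 kb anchors. The intervals cover counting error only. The median size was 140 kb in all 4 libraries.

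Contacts at the called loops were sparse. The median loop of the class had 25 and 27 observed contacts with vehicle and 32 and 31 with THZ1, and the contacts summed to 168018, 203108, 167797 and 148972 in the same order of libraries. The lists hold no read totals, so depth per library is not known from them. The median donut expectation, the contacts expected from a ring around the loop, was 4.75 and 4.98 with vehicle against 6.65 and 6.67 with THZ1. The median expectation was thus higher in both THZ1 libraries, over lists that differ in their loops and in their anchor widths. The median log2 ratio of observed to donut contacts was 2.31 and 2.33 with vehicle against 2.10 and 2.08 with THZ1.

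Loops with a gene start at an anchor were less frequent with THZ1, and the groups stood apart at 5 kb anchors. At least 1 anchor held the annotated start of a protein-coding gene in 44.8% and 45.5% of the vehicle loops and in 40.2% and 40.9% of the THZ1 loops, a difference of -4.59 points (SD 0.51, exact permutation p = 0.333). Among all loops, whatever their size, the shares were 43.7% and 43.97% with vehicle and 38.3% and 38.7% with THZ1, so the difference was not particular to this size. With 5 kb anchors the shares were 43.6% and 44.6% against 36.6% and 35.3%. With 10 kb anchors they were 45.9% and 45.5% against 43.8% and 49.0%, and the groups overlapped. They also overlapped with 25 kb anchors, at 49.5% and 51.99% against 51.4% and 48.3%. The difference between widths was not tested. Loops with a start in both anchors, which join the starts of different genes, made up 11.8% and 12.1% of the class with vehicle and 9.78% and 10.2% with THZ1. They made up nearly the same shares of all loops, 11.9% and 11.9% with vehicle and 9.92% and 10.0% with THZ1. In the class, both anchors lay within 1 gene body in 14.0% and 14.6% of the vehicle loops and in 13.5% and 12.98% of the THZ1 loops.

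The share of anchors with a CTCF core match differed in the other direction at 5 kb anchors. With 5 kb anchors, 13.3% and 12.5% of the vehicle anchors and 15.99% and 16.7% of the THZ1 anchors held a core match, while 4.07% of all 5 kb windows of GRCh37 did. With 10 kb anchors the shares were 16.5% and 16.8% against 17.1% and 18.6%, beside 7.86% of all 10 kb windows. With 25 kb anchors the groups overlapped, at 27.7%, 28.8%, 28.6% and 28.5% in the order of libraries used above, beside 17.9% of all windows. The share of anchors with a match was thus above that of windows of the same width in each library and at each width.

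**Figure D2:**
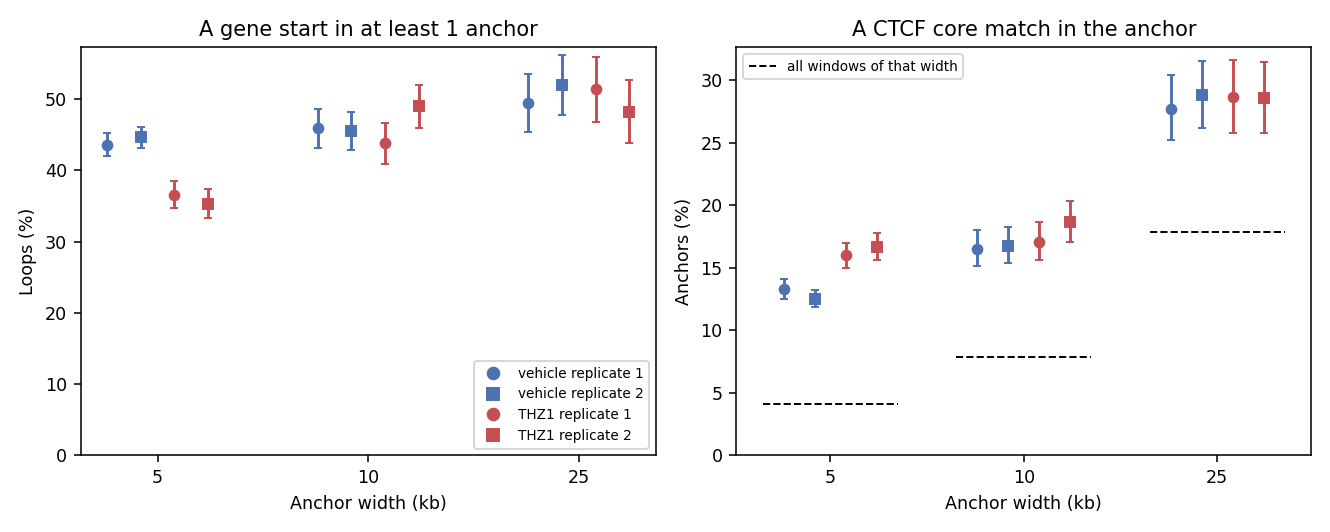
Share of loops with a protein-coding gene start in at least 1 anchor (left, percent) and share of anchors with a CTCF core match (right, percent) by anchor width in kb, with 95% Wilson intervals for each library and, as dashed lines, the share of all genome windows of that width with a match. At 5 kb anchors the THZ1 libraries lie below the vehicle libraries for starts (36.6% and 35.3% against 43.6% and 44.6%) and above them for core matches.

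Orientation could be read in 148 and 160 loops with vehicle and in 139 and 134 with THZ1, those in which each anchor held matches of 1 strand only. Of these, 48.6% and 48.1% with vehicle and 51.1% and 50% with THZ1 were convergent. Among all loops, whatever their size, 50.5% and 49.1% with vehicle and 55.7% and 53.0% with THZ1 were, so a higher share with THZ1 was not particular to this size. The difference of 2.15 points in the class (SD 0.60, exact permutation p = 0.333) held to no single direction across widths. With 5 kb anchors the convergent shares were 56.0% and 57.9% against 65.2% and 72.9%, and with 10 kb anchors they were 48.7% and 51.4% against 42.4% and 37.8%. Loops without a gene start were convergent in 53.3% and 53.5% of cases with vehicle and 56.5% and 56.8% with THZ1, and loops with a start in 41.4% and 38.98% against 40.4% and 39.6%. In each library the loops without a start had the higher convergent share.

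Most loops of this size lay inside a larger loop of the same library, and the conditions could not be separated by this. The nested share was 82.6% and 86.3% with vehicle and 85.4% and 81.6% with THZ1, a difference of -0.98 points that was smaller than the SD of 2.68 within conditions (exact permutation p = 0.667). The direction turned when vehicle replicate 2 or THZ1 replicate 2 was left out, to 0.90 and 0.93 points. The median loop lay within 2 larger loops in all 4 libraries. The smallest loop around it had a median size of 275 kb in both vehicle libraries and of 300 and 305 kb in the THZ1 libraries. Among nested loops, 82.1% and 81.6% with vehicle and 82.9% and 81.3% with THZ1 shared an anchor with a loop around them within 20 kb.

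Looking inward, fewer loops of the class held a smaller one with THZ1. A loop of 90 kb or less lay inside 59.4% and 62.6% of the vehicle loops and inside 45.1% and 40.8% of the THZ1 loops, a difference of -18.0 points (SD 2.65, exact permutation p = 0.333). The lists themselves held 7740 and 8910 loops of that small size with vehicle and 4513 and 3846 with THZ1, and the part of these numbers in the share was not tested. Loops of the class that shared an anchor bin with another of the class made up 28.2% and 33.0% with vehicle against 19.4% and 16.8% with THZ1, and the part of list length in this share was not tested. Domain corners were more frequent with THZ1. Both anchors lay within 20 kb of both boundaries of a contact domain in 5.27% and 5.73% of the vehicle loops and 12.4% and 13.2% of the THZ1 loops. The domain lists held 1198 and 1398 domains with vehicle and 2477 and 2345 with THZ1, and the part of that in the share was not tested either.

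Lists were compared by anchor midpoints, and a loop was taken as shared if any loop of the second list lay within 20 kb at both. By this measure 76.3% of the class in vehicle replicate 1 was called in vehicle replicate 2 and 66.0% the other way round, and 68.7% and 76.7% for the THZ1 libraries. The Jaccard index, the shared loops as a part of all loops of a pair of lists, was 0.548 between vehicle replicates, 0.568 between THZ1 replicates and between 0.451 and 0.502 across conditions. Of the THZ1 loops, 56.4% and 62.9% were called in all 4 lists, against 45.1% and 38.8% of the vehicle loops. Loops in no other list made up 16.7% and 23.4% of the vehicle loops and 10.2% and 8.93% of the THZ1 loops. The vehicle lists were also the longer ones, and the part of list length in these shares was not tested.

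**Figure D3:**
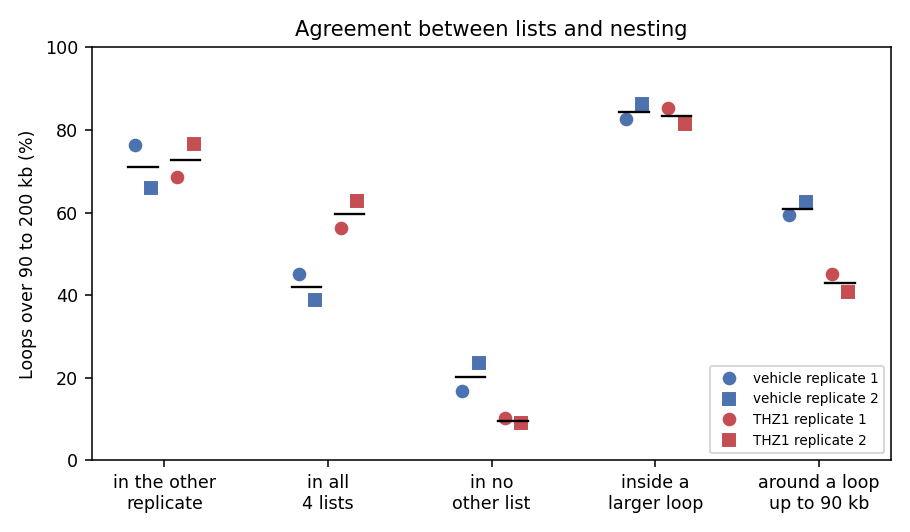
Percent of the loops over 90 to 200 kb of each library that were called in the other replicate, in all 4 lists or in no other list, and that lay inside a larger loop or around a loop of up to 90 kb; circles and squares are replicates 1 and 2 and bars are means. The conditions overlap for the other replicate and for nesting and stand apart for the other 3 measures, with 59.4% and 62.6% of vehicle loops around a small loop against 45.1% and 40.8% of THZ1 loops.

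Agreement between replicates varied with what lay at the anchors. Loops without a gene start were called in the other replicate in 78.2% and 68.8% of cases with vehicle and 71.8% and 79.7% with THZ1, and loops with a start in 73.9% and 62.6% against 64.1% and 72.3%. In each library the share was thus lower with a start. Convergent loops were called again in 77.8%, 72.7%, 77.5% and 80.6% of cases in the order vehicle 1, vehicle 2, THZ1 1 and THZ1 2, and tandem or divergent loops in 68.4%, 61.4%, 58.8% and 65.7%. Convergent loops had the higher share in all 4 libraries. Nested loops, at 78.1%, 68.2%, 69.8% and 77.9%, were called again more often than loops outside any larger loop, at 67.9%, 51.7%, 62.2% and 71.7%. These shares are descriptions over loops of 1 library and its mate.

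Loops of this size that both libraries of a condition held and both of the other lacked were 6.07 times as many for vehicle. Counted in each vehicle library there were 825 and 845, which is 15.6% and 13.8% of the class. Counted in each THZ1 library there were 137 and 138, which is 3.25% and 3.68%. Such loops were not counted over all sizes. The vehicle lists were also the longer ones, and the part of list length in this ratio was not tested. A start in both anchors was found in 15.2% and 14.7% of the vehicle-only loops and in 6.57% and 7.25% of the THZ1-only loops. With 1 library left out, a loop of that condition only needs a call in just 1 library. A loop of the other condition then needs absence from just 1. This changes the definition, and the ratio of the numbers was 2.01 without THZ1 replicate 2 and 2.87 without THZ1 replicate 1. It was 8.61 without vehicle replicate 1 and 4.36 without vehicle replicate 2. A loop that was not called in a list can still have contacts there below the threshold of HiCCUPS, which these lists do not hold.

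The loops of 1 condition described here are the 5 of each with the highest mean observed contacts whatever their anchor width. Wide anchors collect more contacts, so the order favours 25 kb anchors and is no ranking of strength. Among the vehicle-only loops, one of 175 kb on chromosome 18 (9725001 to 9925000) joined RAB31, a small GTPase of vesicle transport, to the start of VAPA, a tether of endoplasmic reticulum contact sites, with 122 and 138 contacts against donut expectations of 59.3 and 65.9. A 145 kb loop on chromosome 6 (36990001 to 37140000) joined FGD2, an exchange factor for CDC42, to the start of PIM1, a serine/threonine kinase, with 118 and 136 contacts against 28.5 and 31.9. This was the one among the 5 with 5 kb anchors in both lists, and its contacts were several times the expectation. On chromosome 1 a loop of 150 kb (231175001 to 231350000) ran from the start of FAM89A to TRIM67, with 115 and 137 contacts. Another of 125 kb (27725001 to 27875000) ran from WASF2, which regulates actin assembly, to AHDC1, with 93 and 120 contacts. Another, of 175 kb on chromosome 6 (56225001 to 56425000), joined an intron of COL21A1, a collagen gene, to DST, which encodes the linker protein dystonin. It had 175 contacts in replicate 1 and 38 in replicate 2, where its anchors differed, and contacts at different anchor widths cannot be set side by side.

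Of the THZ1-only loops chosen in this way, one lay within GATAD2B, a subunit of the NuRD chromatin remodelling complex, from 153775001 to 153900000 on chromosome 1, with its second anchor on the start of the gene. It had 150 and 149 contacts against donut expectations of 71.1 and 68.6. A 100 kb loop on chromosome 5 (150500001 to 150625000) joined ANXA6, a calcium-dependent membrane-binding annexin, to the start of CCDC69, with 116 and 107 contacts. A 100 kb loop on chromosome 17 (65225001 to 65350000) joined the start of HELZ, an RNA helicase gene, to PSMD12, a proteasome subunit, with 165 and 36 contacts at anchors that differed between the lists. A 175 kb loop on chromosome 1 (70775001 to 70975000) had ANKRD13C at its first anchor and no protein-coding gene at its second, with 109 and 97 contacts. Another, of 200 kb on chromosome 8 (107000001 to 107225000), had no protein-coding gene at either anchor and 123 and 113 contacts.

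Genes whose start lay at an anchor of the class numbered 3062 and 3516 with vehicle against 2265 and 2119 with THZ1, of 20090 protein-coding genes. Of these, 921 were found in all 4 libraries, 510 in both vehicle libraries only and 85 in both THZ1 libraries only. In the same terms (both libraries of a condition and none of the other, called vehicle only or THZ1 only) the gene lists chosen for this study gave small numbers. Of 13 cohesin and CTCF genes, 3 were found in all 4 libraries, RAD21 and STAG2, which encode cohesin subunits, and NIPBL, which loads cohesin. SMC3, another cohesin subunit, and CTCF itself were found with vehicle only. The loop of SMC3 (112170001 to 112330000 on chromosome 10) had 26 and 27 contacts with vehicle, against donut expectations of 5.11 and 5.53. That of CTCF (67595001 to 67695000 on chromosome 16) had 21 and 22 contacts against 3.38 and 3.73, and reached the starts of ACD, a telomere protein, and PARD6A, a cell polarity protein.

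Of 8 condensin genes, NCAPG, a subunit of condensin I, was the one with a start at an anchor in all 4 libraries, and none was vehicle only or THZ1 only. The start of NCAPG shared its anchor with that of DCAF16. The 195 kb loop of this anchor, from 17615001 to 17815000 on chromosome 4, reached the start of MED28, a Mediator subunit. It had 21 and 29 contacts with vehicle and 23 and 24 with THZ1, at 6.01 and 6.84 times the donut expectation with vehicle and 4.52 and 4.92 times with THZ1. The contacts of the conditions overlapped and the ratios did not. Of 13 CDK7 complex and transcriptional kinase genes, CDK9, the kinase of P-TEFb, was found in all 4 libraries and none was vehicle only or THZ1 only. The loops at CDK9 were not the same throughout. One of 195 kb was called in both vehicle libraries and THZ1 replicate 1, and one of 135 kb in both THZ1 libraries.

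Receptor genes showed both patterns. Of 15 receptor and caveolin genes, MET, IGF1R and IL6ST, receptors for hepatocyte growth factor, insulin-like growth factor and interleukin-6 family signals, were found in all 4 libraries. EGFR and CAV1, the main coat protein of caveolae, were found with vehicle only. The vehicle loops of EGFR, the epidermal growth factor receptor gene, began at 55085001 on chromosome 7, ended 1 bin apart in the replicates and had 28 and 40 contacts, at 5.46 and 5.26 times the donut expectation. The start of CAV1 lay at 3 loops of vehicle replicate 1 and 1 of vehicle replicate 2, and 1 of the former, from 116160001 to 116320000 on chromosome 7, reached the start of MET with 23 contacts.

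Of 16 YAP and TEAD pathway genes, YAP1, a transcriptional coactivator, and AMOTL2, which binds it, were found in all 4 libraries, the kinase gene LATS1 with vehicle only and AJUBA with THZ1 only. The loop of AJUBA (23450001 to 23660000 on chromosome 14) had 22 and 20 contacts against donut expectations of 5.35 and 4.91. Its size of 200 kb was the upper limit of the class, so a slightly longer vehicle loop would not have been counted. Of 24 genes of the epithelial-mesenchymal transition (EMT), SNAI1, SMAD3 and CD44 were found in all 4 libraries, and TGFBR2, a TGF-beta receptor, and LOX, a collagen crosslinking enzyme, with vehicle only. Of 24 mitotic regulators, BUB1B and CDC25B were found in all 4 libraries, and INCENP, of the chromosomal passenger complex, and CDC25C, a phosphatase of mitotic entry, with vehicle only. The vehicle loops of CDC25C differed, from 137550001 to 137675000 in replicate 1 and from 137510001 to 137680000 in replicate 2 on chromosome 5. Their first anchors did not match within 20 kb.

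The remaining lists had fewer genes at these anchors. Of 16 chemokine and cytokine genes, IL6 was found in all 4 libraries and CXCL8 with vehicle only. The longer loop of IL6 (22600001 to 22770000 on chromosome 7) had 87 and 111 contacts with vehicle and 112 and 96 with THZ1, with overlapping conditions. Its anchor at IL6 also held the start of STEAP1B. Of 12 AP-1 genes, FOSL2 was found in all 4 libraries and BATF3 with vehicle only, and of 16 luminal breast genes ELF3 was found in all 4. The 110 kb loop of ELF3, an epithelial transcription factor gene (201975001 to 202090000 on chromosome 1), had 120 and 124 contacts with vehicle and 102 and 96 with THZ1. Its ratios to the donut expectation were 14.7 and 12.7 with vehicle against 10.2 and 9.68 with THZ1, and neither contacts nor ratios overlapped. Over the 10 lists, 1 gene was found with THZ1 only, beside 85 among all genes.

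Loops that all 4 lists shared had weaker contrast against their surroundings with THZ1. Loops with identical anchors in all 4 lists could be compared in strength, the observed contacts over the donut expectation, and 769 of these were of over 90 to 200 kb. Of the 769, edgeR's quasi-likelihood test with Benjamini-Hochberg adjustment over 2623 tested loops of all sizes called 162 weaker with THZ1, where 24.7% of all tested loops were called weaker, and 0 stronger, where 0.0762% of all were. At an unadjusted p under 0.05, in either direction, there were 287, where 40.7% of all tested loops had such a p. The share of 21.1% of the class was near that of all loops and is no result particular to this size. The median log2 change was -0.38 in the class and -0.41 over all tested loops. The median log2 strength of the 769 was 3.14 and 3.15 with vehicle and 2.79 and 2.72 with THZ1 (difference -0.39, SD 0.039, exact permutation p = 0.333).

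The number of calls varied with the libraries, the tool and the expectation. With any 1 library left out, edgeR called 0 of the 769 (169 to 215 at an unadjusted p under 0.05), while the median log2 change of the class was -0.43 to -0.36. DESeq2 called 8 weaker, where it called 2.13% of all tested loops. On the observed contacts alone, scaled by the trimmed mean of M-values (TMM), 19 loops were lower and 15 higher with THZ1, where 4.35% and 2.78% of all tested loops were. This scaling was computed from the tested loops themselves and centres their typical change. It thus cannot show a shift common to these loops. Over the class the median log2 change was 0.38 for the donut expectation and -0.018 for the observed contacts. A change at the loop and a change around it cannot be told apart without read totals. The counts of replicates at these loops differed by no more than counting error (chi-square p = 0.989 between vehicle replicates and 1 between THZ1 replicates), among loops that had to be called in both.

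The change in strength was larger where genes start. Among the tested loops of the class, 21 of 55 (38.2%) with a start in both anchors were called weaker. Of those with a start in 1 anchor 54 of 211 (25.6%) were, and of those without a start 87 of 503 (17.3%). Of all tested loops, whatever their size, 24.7% were called weaker, and loops outside the class were not split by starts. The median log2 strength of loops with a start in both anchors was 2.71 and 2.73 with vehicle and 2.22 and 2.18 with THZ1. That of loops without a start was 3.25 and 3.24 with vehicle and 2.95 and 2.89 with THZ1. Loops between starts were thus weaker than the others in every library, and the gap between both kinds grew from -0.54 and -0.51 with vehicle to -0.73 and -0.71 with THZ1. This difference of -0.20 exceeded the SD of 0.020 within conditions, and the exact permutation p was 0.333. The 2 parts of the ratio moved unequally, since the observed contacts at loops between starts had a median log2 change of -0.22 and the donut expectation one of 0.29, against 0.087 and 0.42 at loops without a start.

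**Figure D4:**
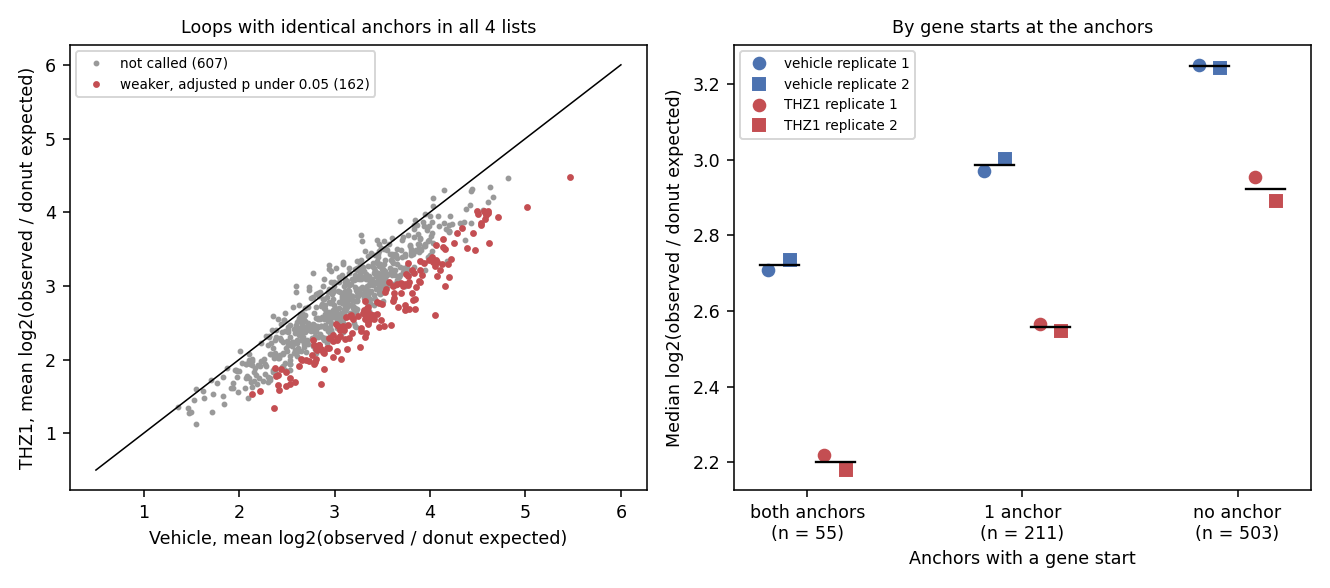
Left, mean log2 ratio of observed to donut expected contacts with vehicle (x axis) and THZ1 (y axis) for the 769 loops over 90 to 200 kb with identical anchors in all 4 lists, with the diagonal for equal values and the 162 loops called weaker in red. Right, the median log2 ratio in each library by gene starts at the anchors, with bars for means and an axis that does not start at 0; loops with a start in both anchors have the lowest values in every library.

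Convergent CTCF matches went with smaller changes, in few loops. Of the tested loops, 23 had convergent matches, with a median log2 strength of 3.25 and 3.42 with vehicle against 3.21 and 3.24 with THZ1, and 3 of them were called weaker. The 502 tested loops without a match had medians of 3.05 and 3.03 with vehicle against 2.69 and 2.63 with THZ1, and 110 were called weaker. The median log2 change was -0.17 for the convergent loops and -0.39 for those without a match. With 23 loops, and with 6 in tandem or divergent orientation, this is a description and the difference was not tested.

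All 162 loops called weaker had lower ratios in both THZ1 libraries than in either vehicle library. The calls were made on the same ratios, so this order adds no support to them. It was found in 499 of the 769 loops of the class and in 1802 of the 2623 tested loops of all sizes. The largest fall was at a 105 kb loop on chromosome 12 (55245001 to 55355000) from an exon of MUCL1, a mucin-like gene of breast epithelium, to an exon of TESPA1, a gene of T cell signalling. It had 24 and 26 contacts with vehicle and 15 and 15 with THZ1, and its ratios were 15.4 and 17.7 against 6.20 and 6.01. It was 2.69-fold weaker (log2 change -1.43, standard error 0.24, edgeR adjusted p = 0.00448). Without any 1 library its log2 change was -1.53 to -1.33 and its adjusted p between 0.0621 and 0.1005. On TMM-scaled contacts alone the log2 change was -0.72, with an adjusted p of 0.181.

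The next loop, of 120 kb on chromosome 1 (155900001 to 156025000), was the one among the 6 largest falls with gene starts, and had them at both anchors. It joined KHDC4, an RNA-binding protein gene, to LAMTOR2, of the Ragulator complex that recruits mTORC1 to lysosomes, and UBQLN4, of proteasomal protein quality control. It had 51 and 56 contacts with vehicle and 29 and 28 with THZ1, and ratios of 7.78 and 6.80 against 3.29 and 3.07 (log2 change -1.18, standard error 0.20, edgeR adjusted p = 0.00451). It also passed on TMM-scaled contacts alone (log2 change -0.89, adjusted p = 0.00705). With any 1 library left out its log2 change was -1.29 to -1.09 and its adjusted p 0.0650 to 0.1005.

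The other 4 largest falls had log2 changes from -1.12 to -1.10 and ratios that did not overlap between conditions. One was on chromosome 11 (36585001 to 36770000) with an exon of RAG1, the V(D)J recombinase gene, at its first anchor, and ratios of 17.0 and 12.1 with vehicle against 5.81 and 7.09 with THZ1. A loop on chromosome 16 (58370001 to 58525000) ran from an intron of GINS3, of the GINS replication complex, to an exon of NDRG4, and had ratios of 18.5 and 17.1 against 9.34 and 6.88. A loop on chromosome 13 (28400001 to 28560000) had an intron of URAD, a gene of urate breakdown, at its second anchor and ratios of 11.6 and 12.5 against 5.97 and 5.14. The loop of chromosome 1 from 168405001 to 168545000 had no protein-coding gene at its anchors and ratios of 12.1 and 15.6 against 7.41 and 5.63. None of the 4 passed on TMM-scaled contacts alone, where their log2 changes were -0.57 to -0.22, and that of RAG1 had an adjusted p of 0.0766 with the bottom-left expectation. Without any 1 library their log2 changes ran from -1.39 to -0.89 and their adjusted p from 0.0660 to 0.138.

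The strongest loops shared by all 4 lists had more than 20 times the contacts of their surroundings on average. The first, of 155 kb on chromosome 19 (23475001 to 23635000), had no protein-coding gene at its anchors and ratios of 56.7 and 34.4 with vehicle and 24.99 and 20.0 with THZ1 (edgeR adjusted p = 0.0141). The chromosome 22 loop with the sequences given above came second (edgeR adjusted p = 0.364). A 95 kb loop on chromosome 6 (32630001 to 32730000) joined HLA-DQB1, which encodes a chain of an MHC class II molecule, to its relative HLA-DQB2, with ratios of 32.4 and 32.2 against 20.2 and 14.0 (edgeR adjusted p = 0.0116). Reads of such related genes can be misplaced, so this value is uncertain. A 145 kb loop on chromosome 8 (80995001 to 81145000), from an intron to the start of TPD52, a gene often amplified in breast cancer, had ratios of 24.9 and 24.6 against 23.9 and 17.3 (edgeR adjusted p = 0.292). The fifth, of 150 kb on chromosome 2 (217380001 to 217535000), had an exon of RPL37A, a ribosomal protein gene, at its first anchor and ratios of 30.0 and 21.2 against 19.7 and 17.2 (edgeR adjusted p = 0.108). In all 5 loops both THZ1 ratios lay below both vehicle ratios. The same order was found in 499 of the 769 loops of the class and in 1802 of the 2623 tested loops of all sizes. Of the 5, 2 were called weaker, beside 24.7% of all tested loops.

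**Figure D5:**
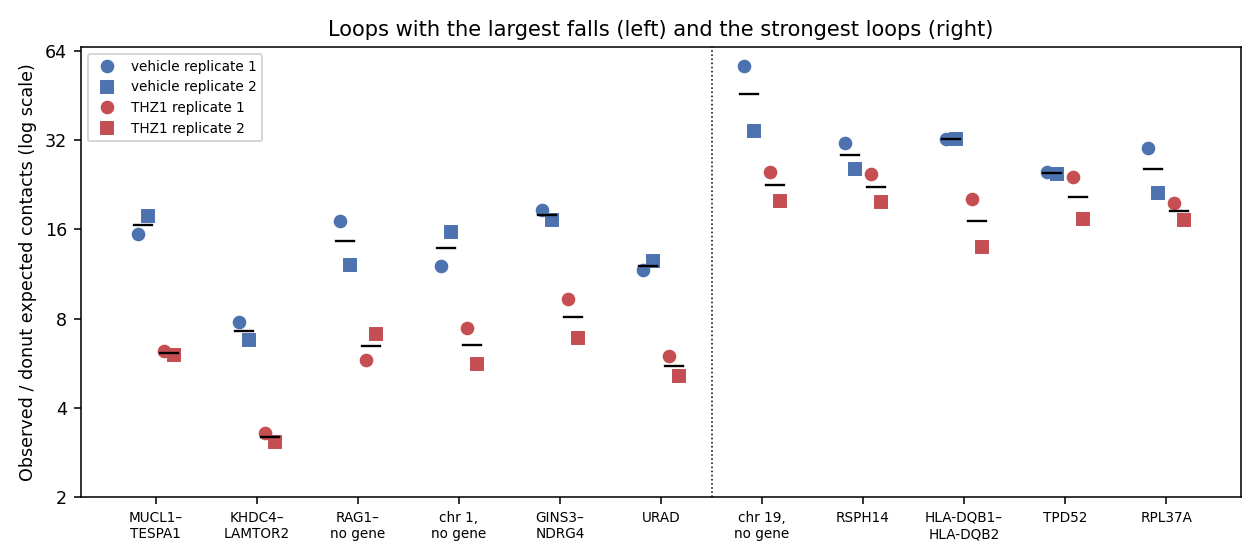
Ratio of observed to donut expected contacts (log scale) in each library for the 6 loops over 90 to 200 kb with the largest falls (left of the dotted line) and the 5 strongest loops with identical anchors in all 4 lists (right), named by genes at their anchors; circles and squares are replicates 1 and 2 and bars are means. The 6 loops on the left were chosen among those with both THZ1 values below both vehicle values. The 5 on the right have the same order, as do 499 of the 769 loops tested in the class. Vehicle and THZ1 values are 15.4 and 17.7 against 6.20 and 6.01 at MUCL1 and TESPA1. At TPD52 they are 24.9 and 24.6 against 23.9 and 17.3.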

How the data were processed

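Arima-HiC libraries of MDA-MB-231 cells (48 h, DMSO or 75 nM THZ1, 2 per condition) were processed by the authors with Juicer 1.6 on hg19, per the labels, and the deposited lists name juicer_tools 1.19.02. The labels give a higher formaldehyde concentration for crosslinking than the study's methods. The settings of HiCCUPS and Arrowhead are not given in the sources used here. The observed values deposited by the authors are raw contact counts at the peak pixel of a loop, so they depend on anchor width. The expected values deposited by the authors are a signal in contacts per pixel, from 4 neighborhoods, and the deposited FDR values are q-values, at most 0.0997. The deposited tables of unique loops hold the authors' own comparison and were not used.

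Loops were taken by size, matched within 20 kb and compared per library by exact two-sided permutation tests. Shares carry 95% Wilson intervals. Gene starts came from GENCODE 44 on GRCh37 coordinates (protein-coding genes only), and no anchor lay beyond a chromosome end. Strength was tested with edgeR 4.0.16 (R 4.3.3) on the 2623 loops with identical anchors in all 4 lists and a donut expectation above 0 in each, with its log as offset, and with DESeq2 1.42.0 as an alternative. Python 3.11.15, numpy 2.4.6, pandas 2.3.3, scipy 1.17.1, pysam 0.24.0 and matplotlib 3.10.9 were used, and the matching and the strength test were tested on simulated data. Loops named were the 6 largest falls among calls of the same direction in all 4 pairs of libraries (no rise was called), the 5 strongest shared loops and the 5 loops of each condition only with the most contacts. Genes named were those at their anchors and listed genes found in all 4 libraries or in 1 condition only. Printed sequences were to be those of named loops with 1 core match per anchor, not on chromosome 8. The members and lists were chosen with earlier results of these data known.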

Additional observations from a re-analysis of the deposited data

How the results depend on the processing

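Of 40 alternatives that kept all libraries, 17 left the value within the spread of replicates (a count within 1.5 times, the agreement within the SD of the 4 Jaccard indices across conditions), 18 moved it and 5 reversed it. For the log2 ratio of loop numbers (-0.52), the values were -0.69 with 5 kb anchors, -0.22 with 10 kb, -0.25 with 25 kb and -0.30 with at least 20 observed contacts, and -0.62 to -0.41 without 1 library. For the share of all loops (-0.71 points), they were -1.15 with size from start to end, 0.82 with 5 kb anchors, 0.27 with 10 kb, -4.27 with 25 kb and -0.31 with at least 20 contacts, and -0.93 to -0.49 without 1 library.

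Of the 769 loops tested in the class, edgeR called 162 weaker, and each alternative made its own calls. There were 90 with the mean of the 4 expectations, 19 with TMM (and 15 higher), 8 with DESeq2 and 0 without any 1 library. One loop outside the class had a donut expectation of 1.21e-09 in 1 library. Leaving it out with a minimum of 1e-06, chosen after these calls were seen, gave 182. The replicate block gave 193 calls. Samples of equal replicate number did not deviate together (correlation of deviations -0.0088). This cannot exclude a pairing, and the labels do not say what a number shares. The median strength change (-0.39) ran from -0.43 to -0.35 without 1 library. With TMM it was 0.016, but this scaling centres the typical change of the tested loops, so that value is small by construction.

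The ratio of condition-only loops (6.07) was 9.59 when matched within 50 kb. It was 2.01 to 8.61 without 1 library, where the definition of such a loop changes with the number of libraries. The nested share difference (-0.98 points) ran from -2.88 to 0.93 without 1 library, and was 0.90 without vehicle replicate 2 and 0.93 without THZ1 replicate 2. The start site share difference (-4.59 points) was -2.46 with anchors extended by 5 kb, -3.77 with all annotated genes, 0.69 with 10 kb anchors and, added after the data were seen, -8.17 with 5 kb anchors. It ran from -4.96 to -4.21 without 1 library. The convergent share difference (2.15 points) was 4.77 with the third base of the core free, -9.90 with 10 kb anchors and, also added, 12.1 with 5 kb anchors. It ran from 1.61 to 2.69 without 1 library. The domain corner difference (7.29 points) was 2.84 within 10 kb and 14.4 within 50 kb, and 6.89 to 7.69 without 1 library. The mean Jaccard index within conditions exceeded that across conditions by 0.0806, and by 0.0679 matched within 10 kb, 0.0808 within 50 kb and 0.0649 with all FDR values up to 0.01. The cause of these shifts was not tested. Sparse contacts per loop and 2 libraries per condition limit all of these values.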
